A study of Homo sapiens with 6 samples.

Results

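The TRIM (tripartite motif) genes were 59 of the 19777 genes measured on 6 arrays of MDA-MB-231 cells, 3 given an siRNA against ING2 and 3 given a non-targeting siRNA. They were chosen by symbol: every probe set annotated to a single gene whose symbol is TRIM followed by a number was taken, and each gene was represented by its probe set of highest mean over the 6 arrays. The 59 genes had 134 such probe sets. Not every one encodes a ubiquitin ligase: RefSeq lists TRIM52-AS1 and TRIM67-AS1 as non-coding RNAs and TRIM64EP and TRIM16L as pseudogenes, and the proteins of TRIM14, TRIM16, TRIM29, TRIM44 and TRIM66 are known to lack a RING finger. A further 13 TRIM symbols occur only on probe sets that name several genes, and those probe sets are described apart.

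TRIM proteins share a RING finger, 1 or more B-boxes and a coiled coil, followed by a C-terminal part that differs between subfamilies and selects the target. The RING finger brings in a ubiquitin-conjugating enzyme, so that the protein acts as a ubiquitin ligase, and the coiled coil pairs the chains. Many members with a PRY-SPRY domain act in innate immunity and several are induced by interferon through response elements in their promoters, whereas members with a PHD finger and a bromodomain act on chromatin.

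The cells are MDA-MB-231, a long-established line from a human breast cancer, of mesenchymal character and without estrogen receptor. Cells of the ING2 siRNA group (n = 3) received 1 siRNA against ING2, a PHD finger protein of a SIN3 histone deacetylase complex, and cells of the control siRNA group (n = 3) received a non-targeting siRNA. The treatment label names Dharmafect 1 as the transfection reagent, and no second ING2 siRNA and no untransfected cells are part of the comparison. RNA was collected 4 days after transfection by one label and 3 days by another. Whether the replicates were separate cultures is not stated, so each p-value reflects only how much these particular samples varied, and that variation may be technical.

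The interferon-inducible members are shown first by their promoters, because the letters of an interferon response element can be read there and the values of the same genes follow. The core searched was GAAA, any 2 bases, then GAAA, on both strands of the 300 bases from 250 before to 50 after each gene start in RefSeq (GRCh38.p14). It was present in 8 of the 45 TRIM genes with a promoter in that table (17.8%), against 1195 of 27305 genes overall (4.38%). By promoter entry the share was 13.3% of 60 TRIM promoters and 3.57% of all 35116. Of the 9 measured members listed as interferon-inducible, 8 had an entry and 5 of those held the core, against 3 of 37 other TRIM genes (TRIM2, TRIM16 and TRIM44). The other 14 members, TRIM22 among them, had no entry. Of the 8 holders, TRIM2 was the 1 past the threshold, which 8.29% of all genes passed. TRIM2 was picked for printing by that call, and TRIM16 and TRIM44 are not printed. The 5 interferon-inducible holders and TRIM2 are given as 50 bases 5′ to 3′ on the strand that carries the core. The core is in capitals. The lines are TRIM5 at chr11:5685072-5685121 (plus strand), TRIM14 at chr9:98119219-98119268 (plus), TRIM21 at chr11:4393656-4393705 (minus), TRIM26 at chr6:30213571-30213620 (plus), TRIM69 at chr15:44736446-44736495 (minus) and TRIM2 at chr4:153151926-153151975 (plus).
TRIM5: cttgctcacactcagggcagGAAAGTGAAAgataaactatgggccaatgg
TRIM14: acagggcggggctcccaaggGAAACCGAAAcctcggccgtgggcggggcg
TRIM21: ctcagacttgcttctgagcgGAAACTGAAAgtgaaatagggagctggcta
TRIM26: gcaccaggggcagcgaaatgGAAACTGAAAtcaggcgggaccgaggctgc
TRIM69: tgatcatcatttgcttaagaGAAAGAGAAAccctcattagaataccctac
TRIM2: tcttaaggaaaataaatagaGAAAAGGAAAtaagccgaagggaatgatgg
TRIM21 and TRIM26 each held a second core overlapping the printed one. Counted along the strand of the gene, the core began 27 bases before the gene start in TRIM5, 26 before it in TRIM14 and 17 after it in TRIM21. It began farther upstream in TRIM69 (62 bases), TRIM26 (194) and TRIM2 (217). In TRIM5, TRIM14, TRIM26 and TRIM69 the printed strand is opposite to the gene, so the distance is to the last printed base of the core. A match describes letters and is not evidence of binding.

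ING2, the targeted gene, read 163, 188 and 161 intensity units on the ING2 siRNA arrays, against 1400, 1349 and 1324 units on the control siRNA arrays. ING2 thus fell to 12.5% of the control level (SE of the log2 change 0.09, limma adjusted p = 1.85e-07 over all genes), and the groups did not overlap. Median intensity was 78.3 to 81.4 units on ING2 siRNA arrays and 75.6 to 77.1 units on control siRNA arrays. The spread of log2 intensity between its quartiles was 3.11 to 3.27 on ING2 siRNA arrays and 3.33 to 3.38 on control siRNA arrays, so dim genes lay higher and bright genes lower on the ING2 siRNA arrays. The 3′ minus 5′ log2 signal of GAPDH, which rises as RNA or cRNA shortens, was 0.27 to 0.35 in ING2 siRNA samples and 0.19 to 0.22 in control siRNA samples. VIM, CD44, KRT18 and KRT8, markers of the line, stood at the 96.2 to 99.6 percentile of intensity, and ESR1, PGR and GATA3 at the 5.5 to 55.6 percentile. The blood markers PTPRC, CD3E, LYZ and HBB stood no higher than the 45.6 percentile, and their summed intensity was 339 to 342 units after ING2 siRNA and 303 to 329 units after control siRNA. LYZ was the 1 of them past the threshold, at 33.3 units after ING2 siRNA and 47.5 units after control siRNA. The fibroblast markers LUM, DCN and PDGFRB summed to 328 to 354 units after ING2 siRNA and 356 to 426 units after control siRNA, with LUM lower, DCN higher and PDGFRB not past the threshold. The part of these array and marker differences in the values below was not tested.

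Most TRIM transcripts differed little between the groups. Of the 59 genes, TRIM51 rose, TRIM22, TRIM59, TRIM29 and TRIM2 fell, and 54 did not pass (limma, p under 0.05 after Benjamini-Hochberg adjustment over all 19777 genes). The share called was 8.47%, against 8.29% of all genes. Over all genes 3.62% rose and 4.67% fell, so the share of TRIM genes called was close to the background. Log2 changes, always ING2 siRNA minus control siRNA, ran from -0.59 to 0.44 in the family, with quartiles of -0.02 and 0.17 and a median of 0.08. The median over all genes was 0.06, with quartiles of -0.10 and 0.19. Values above 0 were found in 41 of 59 TRIM genes (69.5%) and in 61.7% of all genes. In bulk RNA, fewer cells of a kind and less RNA per cell cannot be told apart.

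The precision allows a bound on the family: the 95% interval of the log2 change lay within 1 of 0 for 59 of 59 genes and within 0.5 of 0 for 51. Over all 19777 genes the same counts were 19644 and 15341, so most genes met both bounds. The groups did not overlap for 17 of the 59 TRIM genes, 11 higher and 6 lower after ING2 siRNA. That is 28.8% of the family, against 36.5% of all genes, of which 22.8% were higher and 13.8% lower. Array by array, the median deviation of the 59 genes from the control mean was 0.08, 0.05 and 0.09 on the ING2 siRNA arrays and 0.02, 0.01 and -0.02 on the control siRNA arrays. The same medians over all genes were 0.07, 0.04 and 0.05 on the ING2 siRNA arrays, so the family moved with the arrays as a whole to within a few hundredths.

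**Figure D1:**
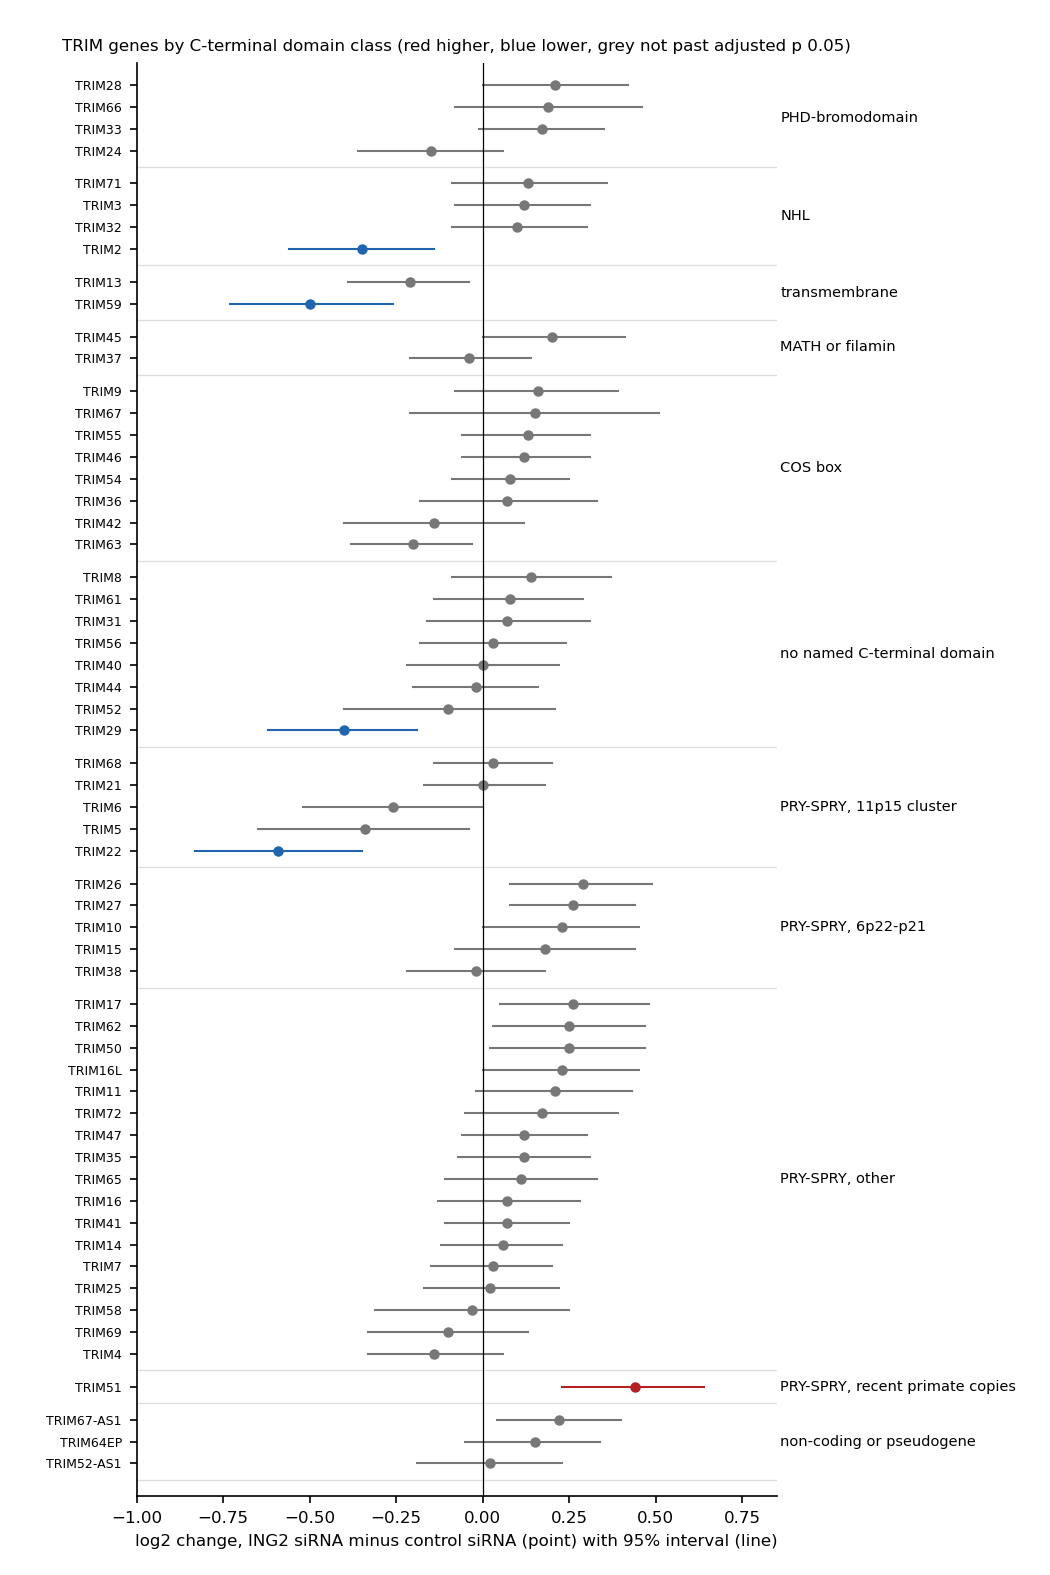
Log2 change of each of the 59 TRIM genes, ING2 siRNA minus control siRNA (n = 3 arrays each), as a point with its 95% interval, grouped by C-terminal domain class. TRIM22, TRIM59, TRIM29 and TRIM2 lie below 0 past the threshold, TRIM51 lies above it, and the other 54 genes are grey.

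The calls depended on single arrays. Without ING2 siRNA replicate 1, without ING2 siRNA replicate 3, without control siRNA replicate 2 or without control siRNA replicate 3, 0 TRIM genes passed by limma, and 2 or 3 of all genes did. At an unadjusted p under 0.05 the same 4 fits held 9, 6, 8 and 4 TRIM genes higher and 5, 4, 6 and 4 lower, and the full set of arrays held 9 higher and 7 lower. Without ING2 siRNA replicate 2, TRIM22, TRIM59, TRIM29 and TRIM51 passed (6.78% of the family), against 13% of all genes. Without control siRNA replicate 1, TRIM22, TRIM29, TRIM59, TRIM51, TRIM5 and TRIM62 passed (10.2%), against 13.2% of all genes. Each of the 5 called genes kept its sign in all 6 fits.

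TRIM22, an antiviral ligase of the chromosome 11p15 cluster induced by interferon, had the lowest log2 change of the family. Its single probe set read 237, 264 and 246 units after ING2 siRNA, against 319, 416 and 392 units after control siRNA. The 3 ING2 siRNA arrays were close together and all below the controls, among which replicate 1 was lowest. TRIM22 fell by 0.59 on the log2 scale (SE 0.11, 95% interval -0.83 to -0.35, limma adjusted p = 0.0242), a 1.50-fold difference. After cyclic loess between arrays, which removes an intensity trend, the change was -0.57 (limma adjusted p = 0.0197). Leaving out 1 array gave changes of -0.70 to -0.51.

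The 5 measured PRY-SPRY genes of chromosome 11p15 had a median of -0.26, with 0 rising and 1 falling (20% called). Over all genes the median was 0.06 and 8.29% were called. TRIM5, the restriction factor that recognises retroviral capsids, read 135, 180 and 164 units after ING2 siRNA and 167, 224 and 219 units after control siRNA. The groups overlapped, because ING2 siRNA replicate 2 exceeded control siRNA replicate 1, and the change of -0.34 (SE 0.14, 95% interval -0.65 to -0.04, limma adjusted p = 0.118) did not pass. Within each replicate number the ING2 siRNA array was the lower. Of 11 other settings that kept all arrays, 9 left TRIM5 short of the threshold and 2 called it lower. Those were the replicate block (limma adjusted p = 0.0243, 17.7% of all genes called) and array weights (0.0437, 19.5% called). Its second, dimmer probe set gave 0.17. TRIM6, a ligase that makes unanchored ubiquitin chains in interferon signalling, read 381, 508 and 444 units after ING2 siRNA and 476, 581 and 535 units after control siRNA (log2 -0.26, limma adjusted p = 0.152). The cytosolic antibody receptor TRIM21 was level, at 424, 403 and 416 units after ING2 siRNA and 401, 402 and 437 units after control siRNA (log2 0.00). TRIM68, a ligase described as a coactivator of the androgen receptor, had a change of 0.03. TRIM34 of the same region was read only together with the TRIM6-TRIM34 readthrough. Of their shared probe sets, 1 read 82.5, 54 and 73.8 units after ING2 siRNA and 95.3, 88 and 94.5 units after control siRNA. Those groups did not overlap, and the change of -0.42 (SE 0.14) did not pass (limma adjusted p = 0.0999 over all probe sets, of which 5.28% were called). The other shared probe set gave -0.18.

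The 5 PRY-SPRY genes of chromosome 6p22-p21 had a median of 0.23, with 4 above 0, 1 below it and 0 past the threshold in the deposited values. TRIM27, a ligase also known as RFP, read 1269, 1336 and 1325 units after ING2 siRNA and 1147, 1103 and 1034 units after control siRNA. TRIM26, a ligase that regulates interferon signalling, read 570, 685 and 655 units after ING2 siRNA and 530, 534 and 499 units after control siRNA. In both genes every ING2 siRNA array was above every control siRNA array. TRIM27 had a change of 0.26 (SE 0.08, limma adjusted p = 0.0649) and TRIM26 of 0.29 (SE 0.09, limma adjusted p = 0.0698). After cyclic loess, by which 5.70% of all genes were called, both passed as higher, TRIM27 with 0.35 (limma adjusted p = 0.0374) and TRIM26 with 0.35 (limma adjusted p = 0.0427). The other probe sets of TRIM27 gave -0.03 and -0.12, and TRIM26 had 1 probe set. TRIM10, an erythroid factor, and TRIM15, a focal adhesion protein, had changes of 0.23 and 0.18, and TRIM38, which tempers innate immune signalling, of -0.02.

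Of the 17 other PRY-SPRY genes, among which TRIM16L (log2 0.23) is counted although RefSeq lists it as a pseudogene, 14 lay above 0 and 0 passed, with a median of 0.11 and a range of -0.14 to 0.26. TRIM17, a ligase of neurons, read 124, 129 and 144 units after ING2 siRNA and 119, 111 and 101 units after control siRNA (log2 0.26, limma adjusted p = 0.0904). TRIM62, a ligase with a described role in epithelial architecture, read 149, 151 and 168 units after ING2 siRNA and 147, 128 and 120 units after control siRNA (log2 0.25, SE 0.10, limma adjusted p = 0.112). Neither gene's groups overlapped, and the 2 further probe sets of TRIM62 gave 0.25 and 0.26. TRIM25, the ligase that activates RIG-I, was level on its brighter probe set, at 594, 587 and 631 units after ING2 siRNA and 637, 604 and 544 units after control siRNA (log2 0.02, limma adjusted p = 0.86). Its dimmer probe set read 267, 209 and 234 units after ING2 siRNA and 188, 210 and 197 units after control siRNA, with overlap. That change of 0.25 did not pass (limma adjusted p = 0.15 over probe sets naming 1 gene). TRIM14, a mitochondrial adaptor in RIG-I signalling, had a change of 0.06, and TRIM4 and TRIM65, ligases that act on RIG-I and MDA5, had changes of -0.14 and 0.11.

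The 9 interferon-inducible members (TRIM5, TRIM14, TRIM21, TRIM22, TRIM25, TRIM26, TRIM38, TRIM56 and TRIM69) lay on both sides of 0. Family genes with other symbols, such as PML (given below), were not considered for this list. The median of the 9 was 0.00, with a range of -0.59 to 0.29, 0 higher and 1 lower (11.1% called). The other 50 TRIM genes had a median of 0.11 with 1 higher and 3 lower (8%). Of all genes 8.29% were called. Among the 5 whose promoters are printed above, changes were -0.34 in TRIM5, -0.10 in TRIM69, 0.00 in TRIM21, 0.06 in TRIM14 and 0.29 in TRIM26, and none passed in the deposited values. Whether the core goes with a direction of change was not tested. Of 9 listed interferon signalling genes, the 7 tested here had a median of 0.06 with 0 past the threshold, and the smallest p belonged to the transcription factor IRF1 (log2 0.16, limma adjusted p = 0.181). In the RIG-I pathway, 0 of 6 genes passed. The smallest p there was that of IFIH1, the RNA sensor MDA5, which read 238, 246 and 253 units after ING2 siRNA and 258, 349 and 319 units after control siRNA (log2 -0.32, limma adjusted p = 0.0873).

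The chromatin class of PHD-bromodomain proteins had 0 of 4 genes past the threshold and a median of 0.18. TRIM28, the corepressor KAP1 that KRAB zinc finger proteins recruit to silence chromatin, read 2027, 2361 and 2473 units after ING2 siRNA and 2047, 1917 and 1938 units after control siRNA. Replicate 1 of the ING2 siRNA group lay within the controls, and the change was 0.21 (SE 0.09, 95% interval 0.00 to 0.42, limma adjusted p = 0.145). TRIM33, a ligase and chromatin reader that acts on SMAD4, read 848, 887 and 816 units after ING2 siRNA and 765, 776 and 724 units after control siRNA. Its groups did not overlap, yet the change of 0.17 (SE 0.08, 95% interval -0.01 to 0.35, limma adjusted p = 0.163) did not pass, and its other probe sets gave -0.33, 0.08 and -0.11. TRIM24, a transcriptional cofactor that reads histone H3 tails, read 888, 1036 and 938 units after ING2 siRNA and 964, 1135 and 1074 units after control siRNA. Those groups overlapped (log2 -0.15, SE 0.10, 95% interval -0.36 to 0.06, limma adjusted p = 0.293). TRIM66, a testis-rich heterochromatin factor, had a change of 0.19. Of 5 partners of TRIM28 in heterochromatin, 0 passed, and the smallest p was that of the HP1 protein CBX1, at 2643, 2812 and 2685 units after ING2 siRNA and 2960, 3259 and 3290 units after control siRNA (log2 -0.22, limma adjusted p = 0.0964).

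Both members with a transmembrane segment lay below 0, with groups that did not overlap on the probe sets that represent them. Over all genes, 13.8% were lower without overlap. TRIM59, a membrane-anchored ligase, read 96.4, 108 and 119 units after ING2 siRNA and 134, 162 and 159 units after control siRNA. TRIM59 fell by 0.50 (SE 0.11, 95% interval -0.73 to -0.26, limma adjusted p = 0.0308), a 1.41-fold difference, and by 0.56 after cyclic loess (limma adjusted p = 0.0247). A dimmer probe set shared by TRIM59 and IFT80 read 22, 23 and 21.2 units after ING2 siRNA and 17.9, 28.5 and 21.7 units after control siRNA (log2 -0.01). TRIM13, a ligase of the endoplasmic reticulum membrane, read 615, 599 and 572 units after ING2 siRNA and 689, 675 and 708 units after control siRNA. This change of -0.21 (SE 0.08, limma adjusted p = 0.0925) did not pass, but a dimmer TRIM13 probe set read 83.1, 97.4 and 85.4 units after ING2 siRNA and 119, 120 and 108 units after control siRNA. That probe set passed as lower (log2 -0.39, limma adjusted p = 0.0411 over probe sets naming 1 gene), and the 2 dimmest TRIM13 probe sets gave 0.10 and 0.01.

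Among the 4 members with NHL repeats, which bind RNA or protein partners, 1 fell and 3 did not pass. TRIM2, a ligase of the nervous system that targets neurofilament light chain, read 432, 478 and 504 units after ING2 siRNA and 656, 570 and 575 units after control siRNA. The groups did not overlap and control siRNA replicate 1 was the highest array. TRIM2 fell by 0.35 (SE 0.09, 95% interval -0.56 to -0.14, limma adjusted p = 0.0494), a 1.27-fold difference, and this call was lost after cyclic loess (-0.29, limma adjusted p = 0.0906) and without any 1 of the 6 arrays (limma adjusted p 0.0564 to 0.13). The limma adjusted p was 0.121 after quantile normalization and 0.0671 with its probe sets averaged. Its next brightest probe sets gave -0.46 and -0.42, and the 3 dimmest gave -0.01, 0.10 and -0.13. TRIM71, an mRNA repressor of embryonic stem cells, was dim, at 23.9, 19.7 and 23.7 units after ING2 siRNA and 21.5, 18.8 and 21 units after control siRNA (log2 0.13, limma adjusted p = 0.371). TRIM3 and TRIM32, ligases of brain and muscle, had changes of 0.12 and 0.10.

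TRIM29, a RING-less member also called ATDC that marks basal and squamous epithelia, was 1 of 8 genes with no named C-terminal domain and the 1 of them that passed. It read 452, 479 and 486 units after ING2 siRNA and 709, 596 and 575 units after control siRNA. No array of one group reached the other, and control siRNA replicate 1 stood above the rest. TRIM29 fell by 0.40 (SE 0.10, 95% interval -0.62 to -0.19, limma adjusted p = 0.0373), a 1.32-fold difference. After cyclic loess the change was -0.34 and the call was lost (limma adjusted p = 0.0622), as it was after quantile normalization (0.0778) and with its probe sets averaged (0.117). Its dimmer probe sets gave -0.18 and 0.07. TRIM8, a ligase that regulates STAT and NF-kB signalling, was the next by p, at 2460, 2818 and 3204 units after ING2 siRNA and 2538, 2523 and 2595 units after control siRNA, with overlapping groups (log2 0.14, limma adjusted p = 0.351).

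**Figure D2:**
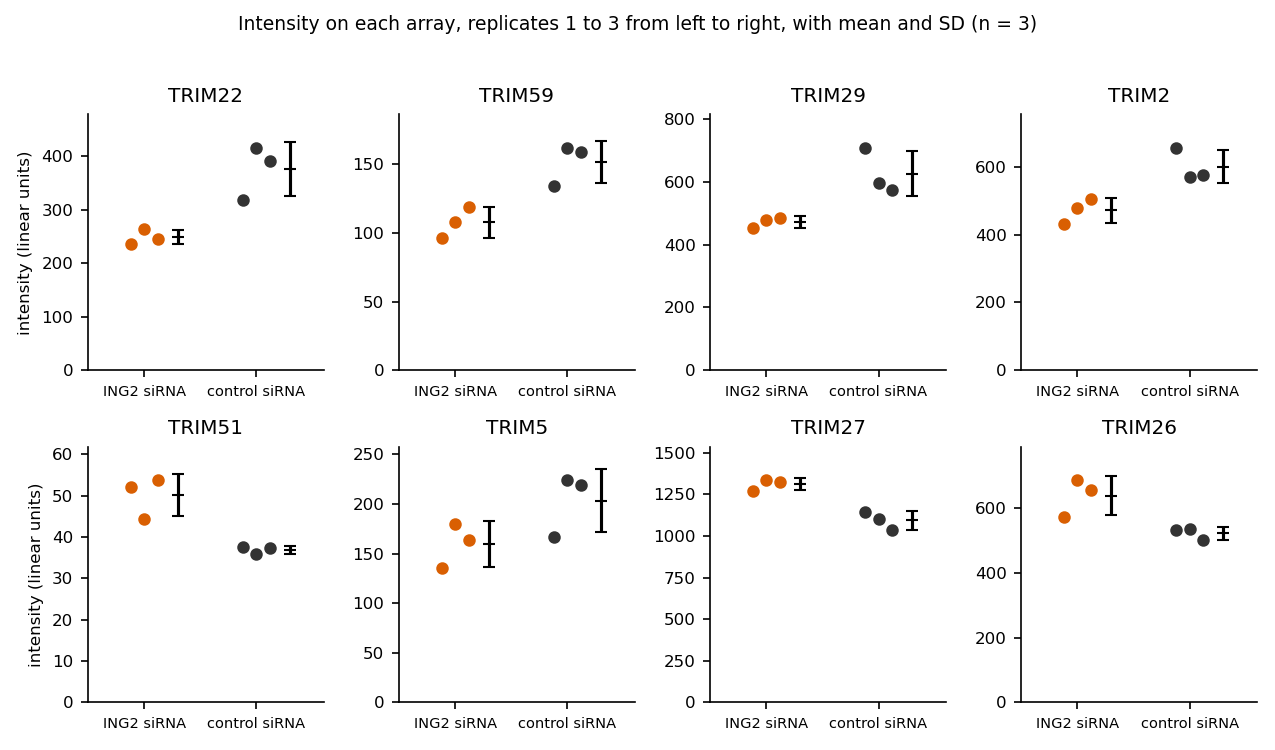
Intensity in linear units on each array for 8 TRIM genes, 3 ING2 siRNA arrays (orange) left of 3 control siRNA arrays (black), with mean and SD (n = 3). The groups are apart in 7 genes and overlap in TRIM5.

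The microtubule-binding COS box class and the MATH or filamin class held no gene past the threshold. TRIM63, the muscle atrophy ligase MuRF1, read 68, 71.2 and 66.6 units after ING2 siRNA and 80.4, 75 and 81.9 units after control siRNA, without overlap (log2 -0.20, SE 0.08, limma adjusted p = 0.112). Its muscle relative TRIM55 was near the low end of the arrays, at 14.4, 12.8 and 13.6 units after ING2 siRNA and 11.9, 12.8 and 12.6 units after control siRNA (log2 0.13, limma adjusted p = 0.295). The 8 COS box genes had a median of 0.10. TRIM37, a MATH domain ligase that restrains centriole formation, was bright and level, at 2542, 2647 and 2729 units after ING2 siRNA and 2632, 2784 and 2707 units after control siRNA (log2 -0.04, SE 0.08, 95% interval -0.21 to 0.14, limma adjusted p = 0.756). Its value was above 0 after quantile normalization (0.09) and cyclic loess (0.07), and a second TRIM37 probe set gave -0.32. TRIM45, a filamin domain ligase that represses MAP kinase signalling, read 113, 135 and 119 units after ING2 siRNA and 102, 114 and 103 units after control siRNA, with overlap (log2 0.20, limma adjusted p = 0.156).

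TRIM51, a PRY-SPRY gene of a recently duplicated primate group, was the 1 member that rose. It read 52.2, 44.4 and 53.8 units after ING2 siRNA and 37.6, 35.8 and 37.3 units after control siRNA, so every ING2 siRNA array was above the controls. TRIM51 rose by 0.44 (SE 0.09, 95% interval 0.23 to 0.64, limma adjusted p = 0.0302), a 1.35-fold difference, and lost the call after cyclic loess (0.31, limma adjusted p = 0.0541). The probe set was dim, at the 21.4 percentile of intensity, where all genes had a median of 0.15. Near-identical copies of TRIM51 exist, so the gene behind the signal is uncertain. The members outside the domain classes were TRIM67-AS1, with 49.7, 48.5 and 47.5 units after ING2 siRNA and 42.8, 43.2 and 39.1 units after control siRNA (log2 0.22, limma adjusted p = 0.0944), TRIM52-AS1 (0.02) and the pseudogene TRIM64EP (0.15), and 0 of these 3 passed.

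Probe sets of a gene often differed. Of 38 TRIM genes with more than 1 probe set, 17 had all of them on the same side of 0 and 21 on both sides. Tested one by one over all 41091 probe sets that name 1 gene, of which 7.30% were called, 1 TRIM probe set was higher (TRIM51) and 4 were lower, in TRIM22, TRIM59, TRIM29 and TRIM13. TRIM2 did not pass in that fit (limma adjusted p = 0.0592). The plot of probe sets shows that TRIM62 gave one value with all its probe sets, whereas TRIM2, TRIM5, TRIM13, TRIM29, TRIM27 and TRIM33 did not.

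**Figure D3:**
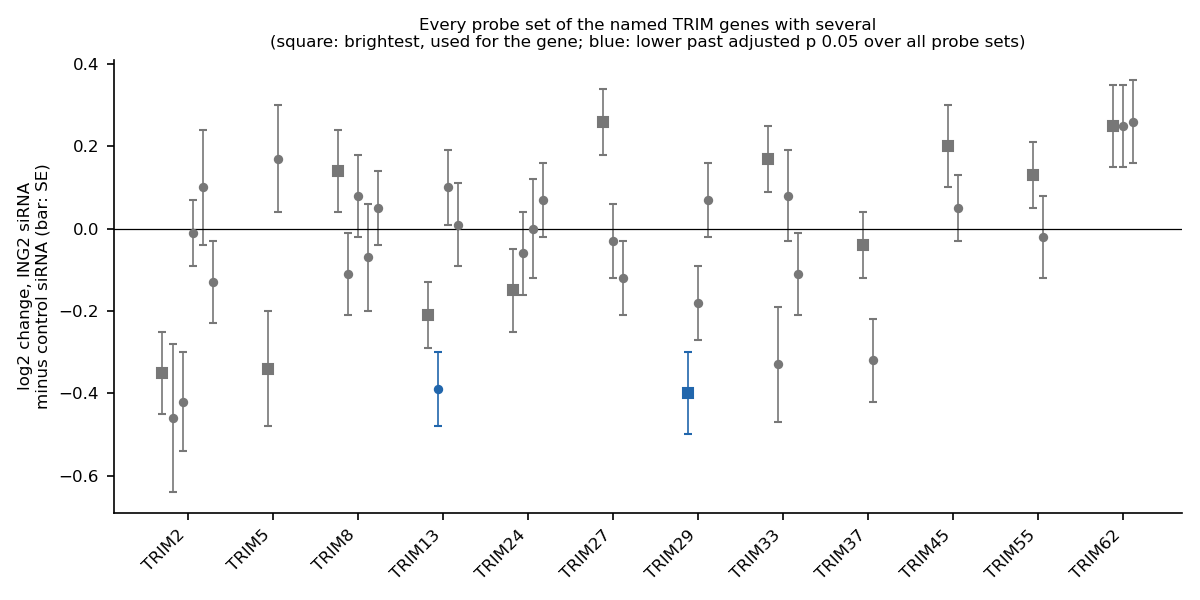
Log2 change with SE, ING2 siRNA minus control siRNA (n = 3 arrays each), for every probe set of the 12 named TRIM genes with several, the square being the brightest. The probe sets of TRIM62 lie at 0.25 to 0.26, and those of TRIM2 run from -0.46 to 0.10.

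On the 13 probe sets that name a TRIM gene together with other genes, 0 passed over all probe sets by limma, 2 having an unadjusted p under 0.05. The groups did not overlap in 3 of them, 2 higher and 1 lower after ING2 siRNA. Over all probe sets 20.5% were higher and 12.3% lower without overlap. The 2 higher ones were shared by TRIM48, TRIM49D1 and TRIM49D2 (log2 0.58) and by TRIM73 and TRIM74 (0.18), and the lower one by TRIM34 and TRIM6-TRIM34, given above. Probe sets of TRIM43 with TRIM43B gave 0.11 and 0.23, and that of TRIM49 with TRIM49C gave 0.05. TRIM39, a ligase that regulates the anaphase-promoting complex, was read with the TRIM39-RPP21 readthrough at 654, 740 and 728 units after ING2 siRNA and 646, 670 and 627 units after control siRNA (log2 0.13), and with RPP21 as well on a brighter probe set (-0.09).

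Log2 change followed intensity over all genes, and the family is read against that. All genes had medians of 0.12 to 0.15 in the 4 dimmest deciles of intensity and -0.09 in the 2 brightest. Below the median intensity, 26 TRIM genes had a median of 0.14, the same as all genes there. Above it, 33 TRIM genes had a median of 0.03 with 60.6% above 0, against -0.04 with 42.5% above 0 for all genes. Relative to the median of their own decile, the called genes stood at -0.64 (TRIM22), -0.61 (TRIM59), -0.36 (TRIM29), -0.31 (TRIM2) and 0.29 (TRIM51). After cyclic loess the family median was 0.07 and that of all genes 0.03, and TRIM26 and TRIM27 were higher and TRIM22 and TRIM59 lower past the threshold.

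**Figure D4:**
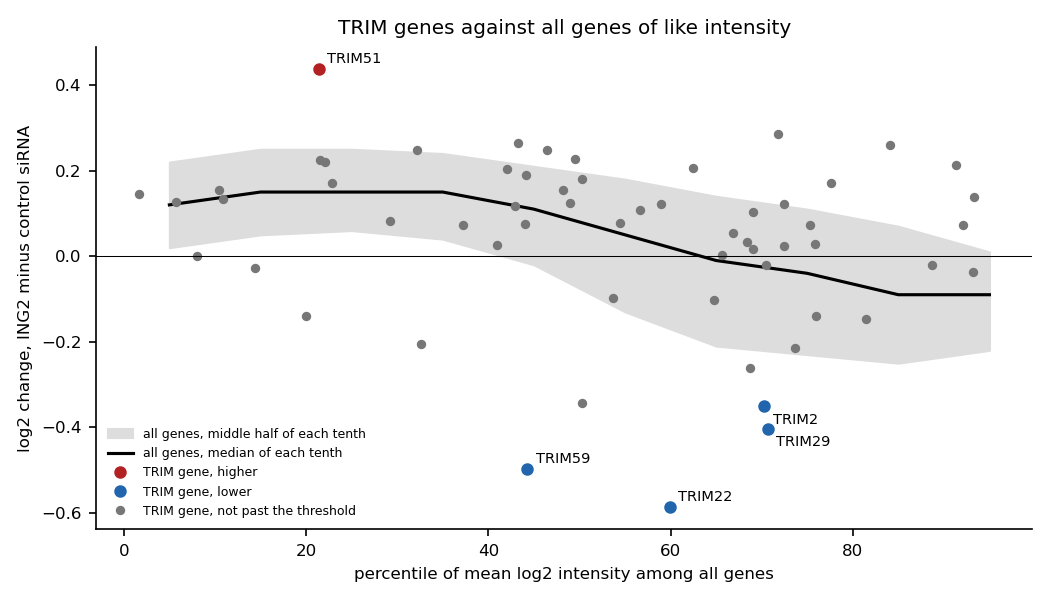
Log2 change of each TRIM gene, ING2 siRNA minus control siRNA, against its percentile of mean log2 intensity among all genes. The line is the median and the band the interquartile range of all genes in each decile, and the line runs from 0.15 among dim genes to -0.09 among bright ones, and TRIM22 and TRIM59 lie farthest below it.

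Of the genes that belong to or work with the family, 25 of 31 listed were tested here, and 1 rose and 1 fell, a share close to the 8.29% of all genes called. PML, the TRIM19 protein that builds nuclear bodies, read 384, 399 and 468 units after ING2 siRNA and 338, 331 and 305 units after control siRNA. PML rose by 0.36 (SE 0.10, limma adjusted p = 0.0493), and by 0.39 after cyclic loess (limma adjusted p = 0.0439). UBE2V2, a partner of the conjugating enzyme UBE2N in building K63 chains, read 1191, 1381 and 1294 units after ING2 siRNA and 1811, 1823 and 1931 units after control siRNA. It fell by 0.53 (SE 0.09, limma adjusted p = 0.0193), while UBE2N had a change of -0.09. In both called genes the groups did not overlap.

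**Figure D5:**
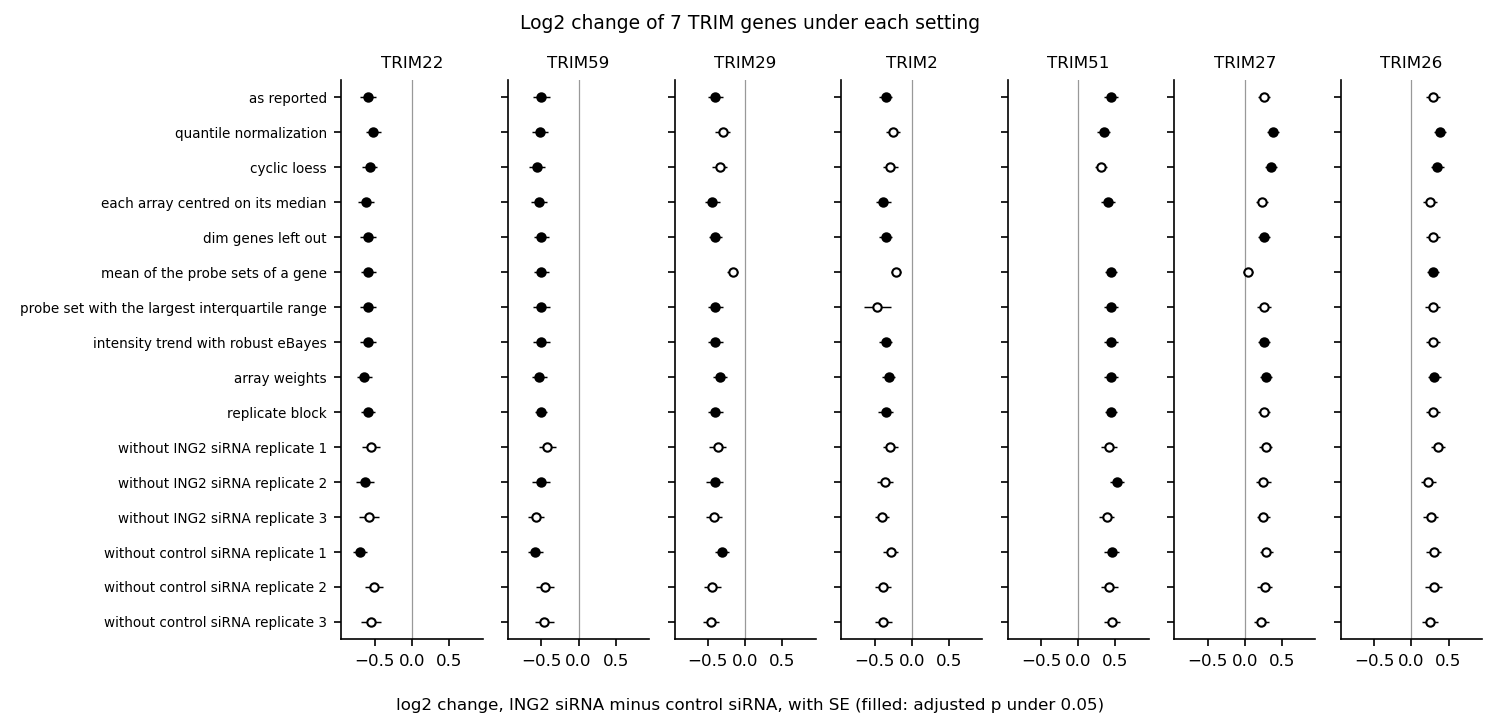
Log2 change with SE, ING2 siRNA minus control siRNA, for 7 TRIM genes under the reported setting and 15 others; filled points passed adjusted p under 0.05, and TRIM51 has no point where dim genes are left out. TRIM22 and TRIM59 are filled in every setting that keeps all 6 arrays, and no gene is filled in all settings that leave out 1 array.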

How the data were processed

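Biotin-labelled cRNA made from total RNA was read on 1 array per sample, per the labels' protocols. The authors deposited a linear intensity for each probe set (4.05 to 33803). The tools listed per the submitters' processing notes are RMA and R 2.12, and how linear values were made from them is not stated there. The log2 of the deposited intensity was taken without a pseudocount. Of 54675 probe sets, 62 controls were left out and 41091 named 1 gene in a platform annotation of 2016, giving 19777 genes. Of these, 19735 matched RefSeq (GRCh38.p14), through which symbols were updated. Groups were compared with limma 3.58.1 (lmFit, eBayes) in R 4.3.3 with no covariate, Benjamini-Hochberg adjusted over all genes. The number of arrays limits the precision. Alternatives changed the normalization, the filter, the probe set, the variance model, weights, pairing, threshold and arrays.

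The members and lists were chosen with earlier results of these data known. The rule for named genes takes those past the threshold, TRIM24, TRIM28 and TRIM33, the members of smallest p until each domain class has 2, and in each partner list those past the threshold or the smallest p. Other TRIM genes, UBE2N and the marker genes were named beside counts after their values were seen. The 3 members in no domain class were set apart by their RefSeq gene type after the data were seen. Same-numbered arrays had correlations of deviations of 0.26, 0.29 and -0.02, and differently numbered arrays of -0.31 to 0.10. Replicates 1 and 2 thus went best with their own number, and replicate 3 did not. The labels do not say whether the numbers pair the samples, and the reported fit does not use them. With the number as a block, 17.7% of all genes were called, against 8.29% without it. Protein sequences were not analysed here.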

Additional observations from a re-analysis of the deposited data

Results flagged for a closer look

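The 13 probe sets naming a TRIM gene together with other genes were outside the gene comparison. Of them, 2 were higher on every ING2 siRNA array than on every control siRNA array, and 1 was lower (TRIM34 with TRIM6-TRIM34, log2 -0.42), against 20.5% higher and 12.3% lower of all probe sets, and 0 passed the threshold by limma (2 had an unadjusted p under 0.05). The probe set shared by TRIM48, TRIM49D1 and TRIM49D2 read 46.9, 39.9 and 46.9 units after ING2 siRNA and 23.5, 30.7 and 36.2 units after control siRNA, a log2 change of 0.58 (SE 0.15, limma adjusted p = 0.0531). These genes belong to the same recently duplicated primate group as TRIM51, and their signals cannot be told apart. A probe set shared by TRIM73 and TRIM74 read 242, 221 and 239 units after ING2 siRNA and 210, 209 and 201 units after control siRNA, a log2 change of 0.18 (SE 0.08, limma adjusted p = 0.198).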

How the results depend on the processing

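As reported, 1 TRIM gene was higher and 4 lower, with a median log2 change of 0.08. Higher and lower counts were 3 and 2 after quantile normalization, 2 and 2 after cyclic loess, 3 and 2 when all probe sets of a gene were averaged, 2 and 4 using its probe set of widest interquartile range, 2 and 4 with an intensity trend and robust eBayes, 5 and 5 with array weights, 0 and 0 at adjusted p under 0.01, and 5 and 5 under 0.1. The share of TRIM genes called was 8.47% against 7.96% of all genes after quantile normalization, 6.78% against 5.70% after cyclic loess, 10.2% against 16.5% for the probe set of widest interquartile range, 8.47% against 13.2% for the average, 10.2% against 12.2% for the trend, 16.9% against 19.5% for array weights and 16.9% against 22.8% under 0.1. Under 0.01, limma called 2 of all genes, and 9 TRIM genes higher and 7 lower had an unadjusted p under 0.05. With dim genes left out, 1 TRIM gene was higher and 4 lower, which is 10.4% of TRIM genes against 14.3% of all genes. TRIM27 was the higher one there, and TRIM51 was among the genes left out. Leaving out 1 array gave 0 to 2 higher and 0 to 4 lower. The median was 0.12 after quantile normalization, 0.04 with each array centred on its median, 0.10 with array weights and 0.04 to 0.10 without 1 array. Signs turned for TRIM24 (0.00) and TRIM55 (-0.02) using the probe set of widest interquartile range, TRIM33 (-0.05) with probe sets averaged, and TRIM37 after quantile normalization (0.09) and cyclic loess (0.07). The probe set settings use other probes. Otherwise the cause was not tested. With the replicate number as a block, 1 gene was higher and 5 lower, TRIM5 being added (limma adjusted p = 0.0243), which is 10.2% of TRIM genes against 17.7% of all genes, and the median stayed 0.08. ING2 passed without each array (-3.07 to -2.96). Dim probe sets have little signal over background, which limits TRIM55, TRIM64EP and TRIM71.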
